A study of Mus musculus with 4 samples.

Results

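The genes of the proteasome were selected by symbol, as every row of the deposited fragment count table whose name begins with Psma, Psmb, Psmc, Psmd, Psme, Psmf or Psmg followed by a digit. The rule found 50 of the 24984 genes in the table, and 47 of them had a mean level of at least 1 CPM (counts per 1000000 fragments of a library) over all libraries, as did 11625 genes in all. By structure, 49 of the 50 fell into 10 classes, and the remaining row, Psmc3ip, matched by name alone and encodes a factor of meiotic recombination.

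TTchem-seq measures RNA made during a short exposure of cells to 4-thiouridine, so that the fragments over a gene, introns included, are read as its transcriptional output. The labels describe capture of poly(A) RNA and the study's methods depletion of ribosomal RNA, which differ in the share of unspliced RNA that they keep. The study applied it to double positive (DP) thymocytes, T cell precursors that carry both coreceptors, CD4 and CD8, to ask how transcription changes when the HMG protein Tox4 is lost. The genotype of the 2 WT libraries was Tox4;F/F, with both Tox4 alleles flanked by loxP sites and no Cre, and that of the 2 cKO libraries was Tox4;F/F;Lck+. Per the study, the Cre was driven by the proximal Lck promoter, which acts in T lineage cells from an early thymic stage. By its methods, the loxP sites enclosed exons 4 to 6, and mice were gender-matched littermates of 6 to 8 weeks. For CUT&Tag and ATAC-seq the study isolated DP cells from thymus with beads against CD4, which also bind CD4 single positive thymocytes, and how the cells for TTchem-seq were isolated is not given in the sources used here.

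The libraries held 38429786 to 48690591 fragments, and the genes of the proteasome took 1979 to 1998 CPM of each. Tox4 itself was at 74.0 and 70.3 CPM in WT and 59.3 and 57.2 CPM in cKO, with a log2 fold change of -0.31 (SE 0.10, adjusted p = 0.0453 with DESeq2). This adjusted p-value was 0.122 with edgeR and rose above the threshold on leaving out any 1 library, and the row counts the whole gene, of which only a part is deleted. The labelled cell type was checked against its markers, and all 12 DP thymocyte markers examined were above 1 CPM, with summed levels of 9739 to 11606 CPM. The 8 erythroid markers summed to 0.0130 to 0.780 CPM and the 8 B cell markers to 18.3 to 25.9 CPM. The 12 proliferation markers summed to 396 CPM in WT replicate 1, 633 CPM in WT replicate 2, 740 CPM in cKO replicate 1 and 620 CPM in cKO replicate 2. All 12 had estimates above 0, their median being 0.37 on the log2 scale, 2 had an unadjusted p under 0.05 with DESeq2 and 0 were called. The sum was lowest in WT replicate 1, that of WT replicate 2 lay between those of the cKO libraries, and the part of these genes in the other results was not tested. Xist, an RNA made by female cells, reached 172 CPM in WT replicate 1, against 2.36 CPM or less elsewhere. The study's methods state that mice were gender-matched, and the part of sex in the differences between genotypes was not tested. Leaving out WT replicate 1 left 0 proteasome genes called, as with all 4 libraries.

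The proteasome is the protease that degrades ubiquitin-tagged proteins. Its 20S core is a barrel of outer alpha rings and inner beta rings, and its proteolytic sites belong to the beta subunits Psmb6, Psmb7 and Psmb5. In lymphoid cells and under interferon, Psmb9, Psmb10 and Psmb8 replace these 3 to form the immunoproteasome, which favours peptides that bind MHC class I, and in cortical thymic epithelial cells Psmb11 takes the place of Psmb5 in the thymoproteasome, which is needed for the normal positive selection of CD8 T cells. The 19S cap, with an ATPase ring and non-ATPase subunits, recognises and unfolds substrates, and PA28 and PA200 are alternative caps.

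Transcription of the proteasome in DP thymocytes was broad and moderate. Except for a second comparison of catalytic genes in CPM alone, levels of different genes were compared as CPM per kb of deposited gene length. This length runs from the deposited start of a gene to its deposited end. Both ends lay within 1000 bp of RefSeq for 49 of the 50 members, Psmc1 being the exception. On this scale, the 47 members above 1 CPM had a median of 2.72 CPM per kb, against 1.46 CPM per kb over all 11625 genes. They spanned a 26.1-fold range, from 0.460 CPM per kb for Psmd10 to 12.0 CPM per kb for Psmb6. When the members were placed in order of level, the ranges over the 4 libraries overlapped for 39 of 46 neighbouring pairs, so that the exact order among most of them was not resolved. The 2 highest genes, Psmb6 and Psmb8, were separate from each other and from Psme1, the next in order. One is a constitutive and the other an immunoproteasome catalytic subunit. Exons make up 41.4% of the length of Psmb6 and 37.5% of that of Psmb8, beside a median of 14.1% over the 50 members. They make up 47.7% of the length of Psmb10, at 2.21 CPM per kb. Where spliced RNA is counted, CPM per kb can also depend on exon share, and its part in the levels was not tested.

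**Figure D1:**
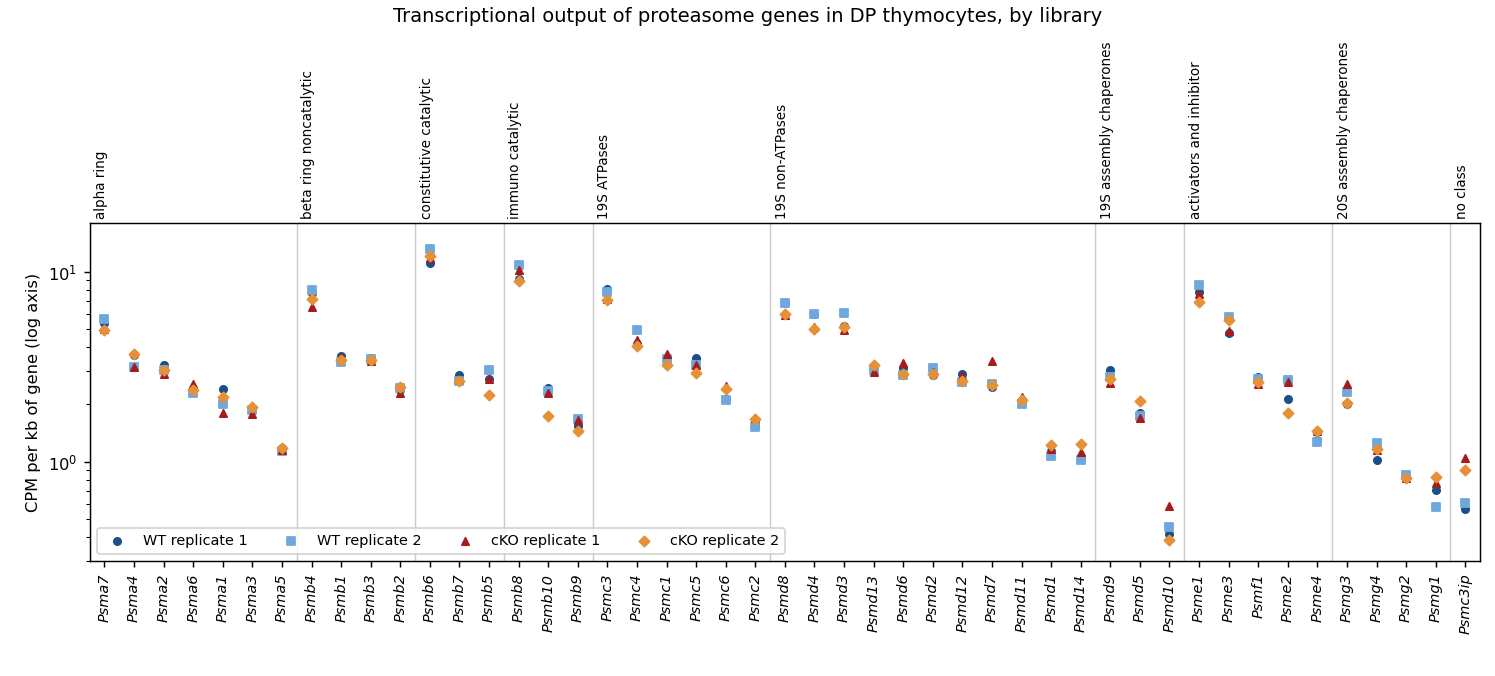
Level of each proteasome gene with a mean of at least 1 CPM, in CPM per kb of gene on a log axis, with 1 symbol for each of the 2 WT and 2 cKO libraries and genes grouped by class and ordered by level within it. Psmb6 (mean 12.0) and Psmb8 (mean 9.75) are the highest, Psmd10 (mean 0.460) is the lowest, and the 4 symbols of most genes lie close together.

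Most catalytic subunit genes differed from each other by more than their libraries did, and the balance of immuno and constitutive gene was not the same at the 3 sites. At the beta 1 site, the constitutive gene Psmb6 was at 11.2 and 13.1 CPM per kb in WT and 11.7 and 12.1 CPM per kb in cKO. Its immuno counterpart Psmb9 was at 1.54, 1.68, 1.67 and 1.46 CPM per kb in the same order. The ratio of Psmb9 to Psmb6 was thus 0.138 and 0.129 in WT and 0.142 and 0.121 in cKO, the lowest of the 3 pairs per kb. At the beta 5 site the order was turned. Psmb5, which carries the chymotrypsin-like site, was at 2.73 and 3.02 CPM per kb in WT and 2.71 and 2.24 CPM per kb in cKO, whereas Psmb8 was at 9.10, 10.8, 10.1 and 8.97 CPM per kb. Psmb8 therefore exceeded Psmb5 by a ratio of 3.34 and 3.57 in WT and of 3.74 and 4.01 in cKO. At the beta 2 site the immuno gene was the lower, by less than at the beta 1 site. Psmb7 was at 2.87, 2.65, 2.71 and 2.67 CPM per kb, Psmb10 was at 2.44, 2.37, 2.28 and 1.75 CPM per kb, and their ratio was 0.849 and 0.894 in WT and 0.844 and 0.654 in cKO. The order of these 2 pairs rested on the division by gene length: in CPM alone, Psmb10 over Psmb7 was between 0.0312 and 0.0426 and Psmb9 over Psmb6 between 0.252 and 0.297, while Psmb8 over Psmb5 was between 2.81 and 3.37. The ranges of Psmb7 and Psmb10 did not overlap, while those of Psmb5 overlapped both.

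Summed over the 3 sites, the immuno genes were at 0.781 and 0.791 of the constitutive genes in WT and 0.821 and 0.717 in cKO. On the log2 scale, the ratio was -0.35 ± 0.01 (SD, n = 2) in WT and -0.38 ± 0.14 (SD, n = 2) in cKO. The difference of -0.04 between genotypes was smaller than the spread between the cKO libraries, and leaving out 1 library moved it from -0.13 to 0.06. With 2 against 2 libraries, a two-sided exact permutation test cannot give a p-value below 0.333. Division by length decided the size of the ratio: without it, the log2 ratio in WT was -2.05. Psmb7 spans 55.9 kb and the other 5 genes 2.50 to 5.23 kb. In mm10 coordinates, the constitutive genes are Psmb6 at chr11:70525357-70527858 (plus strand, 6 exons), Psmb7 at chr2:38588046-38643906 (minus, 8 exons) and Psmb5 at chr14:54614120-54617995 (minus, 3 exons). The immuno genes are Psmb9 at chr17:34182099-34187330 (minus, 6 exons), Psmb10 at chr8:105935728-105938392 (minus, 8 exons) and Psmb8 at chr17:34198195-34201454 (plus, 6 exons), and Psmb11 is at chr14:54625310-54629556 (plus). Exon numbers are those of RefSeq, and exons made up 1.73% of the length of Psmb7 and 15.4% to 47.7% of that of the other 5 genes. The values describe transcription over introns and exons and not the abundance of assembled particles.

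The thymoproteasome gene Psmb11 had 0 fragments in all 4 libraries. A count of 0 allows a level of up to 3 fragments, or 0.0616 to 0.0781 CPM and 0.0145 to 0.0184 CPM per kb, an allowance for counting error only. Taking 3 fragments in each library as the floor, Psmb5 was at least 126-fold higher and Psmb8 at least 505-fold higher per kb than Psmb11 in every library. Psmb11 has a single exon, which covers its whole length of 4247 bp, so that no intronic signal could add to its count. It lies on chromosome 14 only 7315 bp from Psmb5, the gene it replaces in cortical epithelium. Markers of those epithelial cells went both ways: Foxn1 and Prss16 were close to absent as well, while 4 of the 14 examined were above 1 CPM. Foxn1, their master transcription factor, had 1 fragment in cKO replicate 1 and 0 in the other 3 libraries, and Prss16, a thymus-specific serine protease of cortical epithelium, had 1 fragment in WT replicate 1 and 3 in cKO replicate 2. Of 14 cortical epithelial markers examined, the 4 above 1 CPM were Ly75, Ccl25, Ctsl and Cd83, and the list summed to 114 to 127 CPM. Ly75 had a mean of 31.6 CPM and Ccl25 one of 35.5 CPM, and which cells gave these fragments was not tested.

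**Figure D2:**
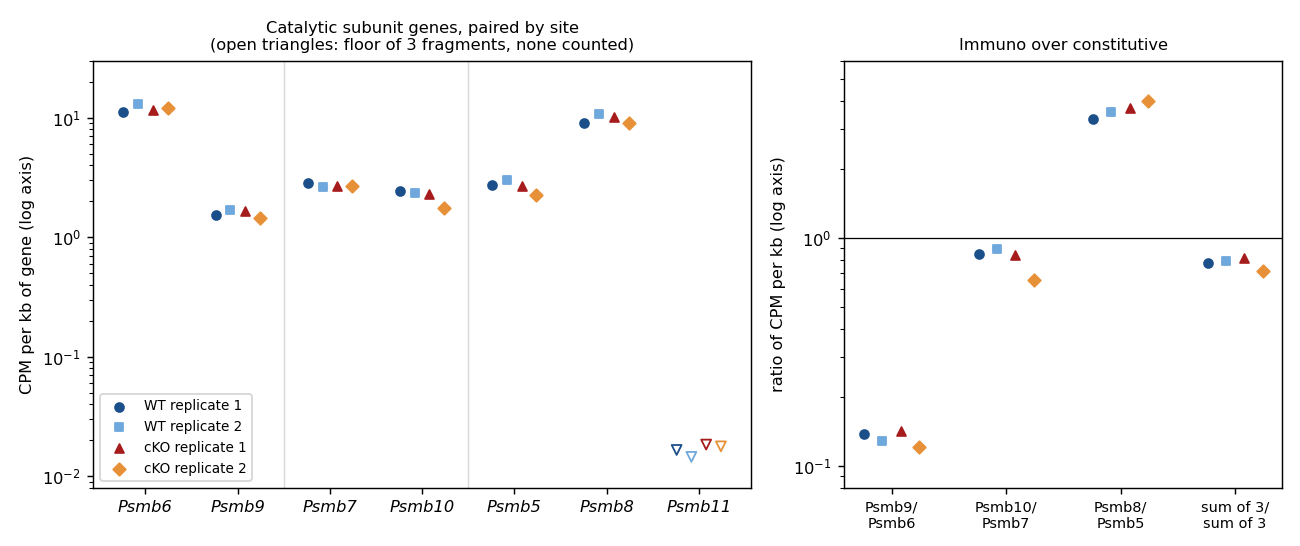
Left, level of the catalytic subunit genes in CPM per kb of gene on a log axis, with constitutive and immuno partners side by side, 1 symbol per library, and open triangles for the floor of 3 fragments where Psmb11 had 0. Right, ratio of immuno to constitutive gene for each pair and for the sums on a log axis: it lies below 0.2 for Psmb9 over Psmb6, from 0.654 to 0.894 for Psmb10 over Psmb7 and above 3 for Psmb8 over Psmb5 in every library.

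The sequences upstream of the catalytic genes are shown because their products share 3 sites while their levels range from 0 to 12.0 CPM per kb. Each is the 250 bases before the annotated start from RefSeq (GRCm38.p6), read 5′ to 3′ on the strand of the gene, with capitals for any match to 1 of 5 motifs searched on both strands. The intervals are chr11:70525107-70525356 (plus strand) for Psmb6, chr14:54617996-54618245 (minus) for Psmb5, chr17:34197945-34198194 (plus) for Psmb8, chr17:34187331-34187580 (minus) for Psmb9, chr8:105938393-105938642 (minus) for Psmb10 and chr14:54625060-54625309 (plus) for Psmb11.
Psmb6: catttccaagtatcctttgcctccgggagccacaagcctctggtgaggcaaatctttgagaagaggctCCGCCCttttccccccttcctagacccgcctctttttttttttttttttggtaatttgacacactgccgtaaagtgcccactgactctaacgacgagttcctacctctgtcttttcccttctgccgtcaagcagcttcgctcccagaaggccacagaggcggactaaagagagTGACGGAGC
Psmb5: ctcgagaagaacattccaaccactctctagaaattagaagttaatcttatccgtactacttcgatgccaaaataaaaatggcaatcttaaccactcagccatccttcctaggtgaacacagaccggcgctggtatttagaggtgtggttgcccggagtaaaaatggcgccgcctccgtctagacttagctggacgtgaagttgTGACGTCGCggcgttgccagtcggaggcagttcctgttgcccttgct
Psmb8: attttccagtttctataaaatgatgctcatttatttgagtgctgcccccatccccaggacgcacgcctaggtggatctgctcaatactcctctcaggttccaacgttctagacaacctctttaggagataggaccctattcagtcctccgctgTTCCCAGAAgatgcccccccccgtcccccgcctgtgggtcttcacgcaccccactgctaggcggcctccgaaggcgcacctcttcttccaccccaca
Psmb9: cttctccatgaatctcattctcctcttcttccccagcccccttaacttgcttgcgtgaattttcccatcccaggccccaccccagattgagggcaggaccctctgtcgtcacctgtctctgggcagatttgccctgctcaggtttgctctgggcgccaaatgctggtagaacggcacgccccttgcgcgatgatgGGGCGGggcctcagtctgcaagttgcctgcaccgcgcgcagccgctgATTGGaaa
Psmb10: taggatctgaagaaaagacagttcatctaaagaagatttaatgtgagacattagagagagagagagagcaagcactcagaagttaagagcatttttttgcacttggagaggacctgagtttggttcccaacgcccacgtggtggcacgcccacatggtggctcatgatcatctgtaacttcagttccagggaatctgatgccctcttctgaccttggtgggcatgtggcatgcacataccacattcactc
Psmb11: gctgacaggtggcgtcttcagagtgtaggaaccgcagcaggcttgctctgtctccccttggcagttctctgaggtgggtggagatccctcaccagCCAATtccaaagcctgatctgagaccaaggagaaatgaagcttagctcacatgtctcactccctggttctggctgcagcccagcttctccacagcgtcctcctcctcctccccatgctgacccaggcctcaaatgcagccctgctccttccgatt
The motifs were the CCAAT box (CCAAT), the GC box (GGGCGG), the antioxidant response element (TGACNNNGC), which is bound by factors of the CNC family such as Nfe2l1, the interferon regulatory factor element and the gamma-activated site (TTCNNNGAA), which is bound by STAT proteins. Psmb5 held the antioxidant response element, Psmb6 that element and a GC box, Psmb8 the gamma-activated site, Psmb9 a CCAAT box and a GC box, Psmb11 a CCAAT box and Psmb10 none of the 5.

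Promoter sequence was found for 42 of the 50 genes, and Psma8, Psmb1, Psmb2, Psmb7, Psmc3, Psmd3, Psmd7 and Psmg2 were not matched. Among the 42, the antioxidant response element was present in 5, or 11.9%, against 10.1% of 27025 promoters of the same length. These 5 sites are shown because Nfe2l1 is the transcription factor known to raise proteasome genes when proteasome activity is low. Each is printed in the orientation of the motif, with up to 10 bases on each side and the element in capitals, from chr14:54618024-54618052 for Psmb5, chr11:70525338-70525356 for Psmb6, chr14:45329587-45329615 for Psmc6, chr5:123228149-123228177 for Psmd9 and chr11:107479278-107479299 for Psmd12.
Psmb5: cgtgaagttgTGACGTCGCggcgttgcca
Psmb6: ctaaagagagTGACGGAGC
Psmc6: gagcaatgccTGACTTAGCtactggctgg
Psmd9: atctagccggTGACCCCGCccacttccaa
Psmd12: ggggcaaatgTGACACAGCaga
The site of Psmb5 lay 47 to 39 bases before the start and that of Psmb6 9 to 1 bases before it, whereas those of Psmc6 and Psmd12 lay more than 200 bases upstream and on the opposite strand. The GC box was present in 22 of the 42, or 52.4%, against 32.9% of all promoters. The CCAAT box was present in 15, or 35.7%, against 34.5%. The interferon regulatory factor element was present in 3, in Psmb3, Psmd4 and Psmd9, against 3.04% of all promoters, and the gamma-activated site in 2, in Psmb8 and Psmg1, against 7.18%. A match is a run of letters and not evidence of binding.

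Between genotypes, transcription of the proteasome genes moved little. No member passed the criteria of the study, which are 1.2-fold or more, an adjusted p from DESeq2 under 0.05 and a mean of at least 1 CPM. There were 0 increased and 0 decreased among 47 members, where 2.14% of all 11625 genes were increased and 1.57% were decreased. At an unadjusted p under 0.05 there was 1 higher and 1 lower member, where the shares over all genes were 7.2% and 6.31%. With edgeR and with limma voom, 0 members were called as well, and 6 of the 47 had an unadjusted p under 0.05 in each, where 15.6% of all genes did with edgeR and 15.9% with limma voom. The lowest adjusted p of any member was 0.204 with DESeq2, for Psmd4, and it ranged from 0.168 to 0.852 over all alternatives tried. In bulk samples, fewer cells of a type and less RNA per cell cannot be told apart.

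The median log2 fold change of the 47 members was -0.02, with 28 lower and 19 higher, and that of all genes was 0.00. The 3875 genes with the highest CPM per kb had a median of -0.05. The change was below 1.2-fold in either direction for 45 of the 47 members. The 95% interval of the change lay within 1.5-fold for 41 members and within 2-fold for 46, but within 1.2-fold for 7, so that for the rest a change of 1.2-fold in at least 1 direction lay inside the interval. The median size of the difference between genotypes, whatever its sign, was 0.09 on the log2 scale, beside 0.09 within WT and 0.11 within cKO. The difference between genotypes is between means of 2 libraries, and a gap between replicates is between single libraries. Without an effect of genotype, the former is thus expected to be the smaller. For 30 of the 47 members, or 63.8%, the genotypes differed by less than the larger gap between replicates, and the same was so for 64.7% of all genes. The cKO libraries exceeded both WT libraries in 7 members, or 14.9%, beside 24.9% of all genes, and were below both in 15 members, or 31.9%, beside 24% of all genes.

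**Figure D3:**
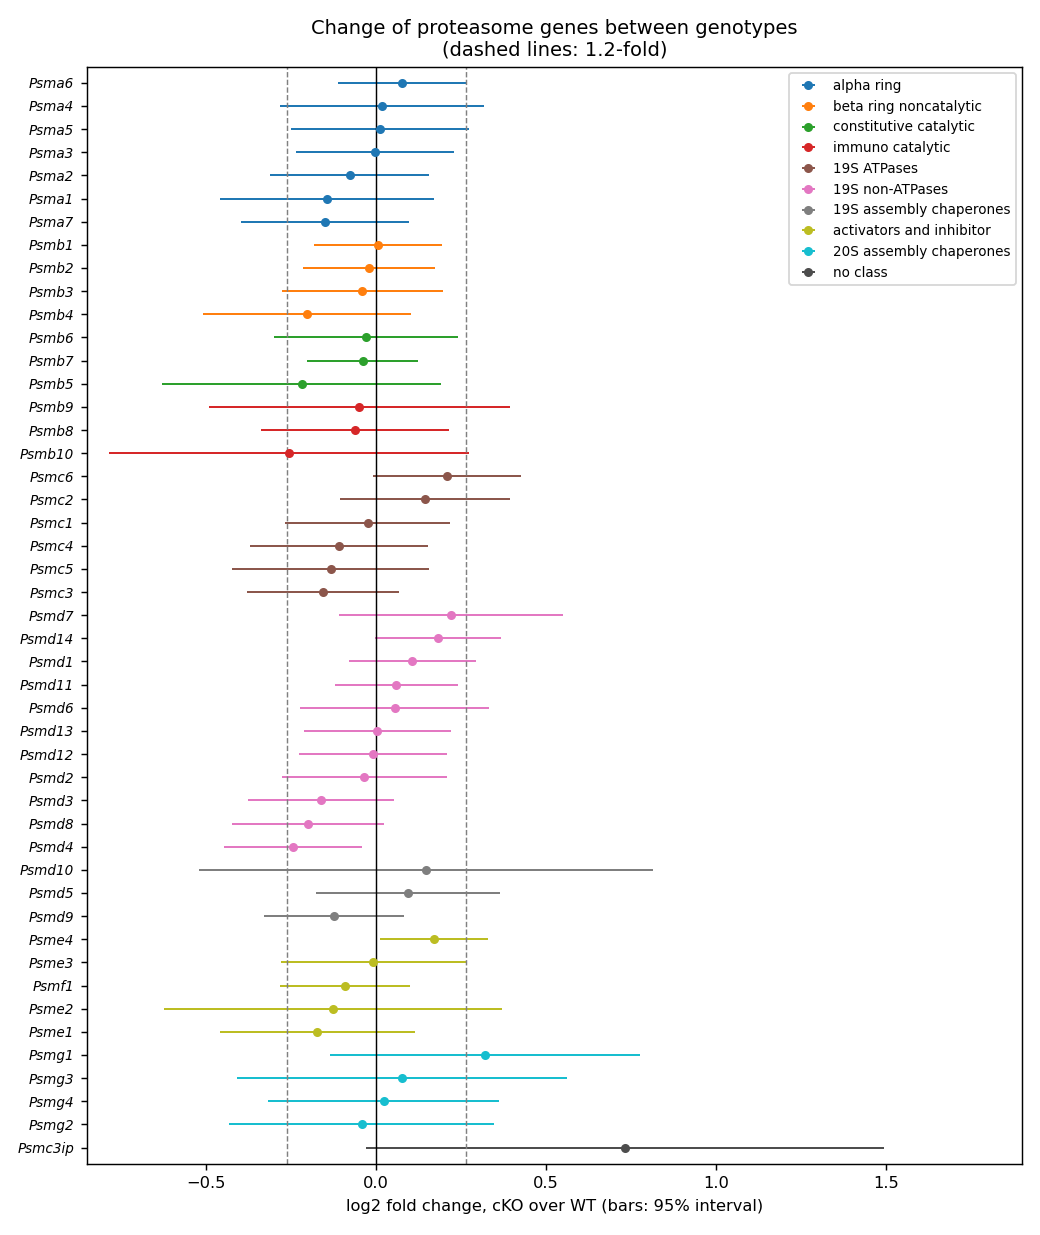
Log2 fold change of cKO over WT with its 95% interval for the 47 proteasome genes with a mean of at least 1 CPM, coloured by class, with dashed lines at a 1.2-fold change. The estimates of 45 genes lie inside the dashed lines, and the 2 exceptions, Psmg1 and Psmc3ip, have intervals that include 0.

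Within the core particle, the 7 alpha ring genes above 1 CPM had a median log2 fold change of 0.00, from -0.15 for Psma7 to 0.08 for Psma6, and the 4 noncatalytic beta genes had a median of -0.03. Psma7, the most strongly transcribed alpha gene, was at 32.7 and 34.2 CPM in WT and 30.3 and 30.1 CPM in cKO. Psmb4, a structural subunit of the beta ring, was at 20.4, 21.1, 17.2 and 18.9 CPM, with a log2 fold change of -0.20 (SE 0.16, adjusted p = 0.630 with DESeq2), and of -0.13 without cKO replicate 1. Both cKO libraries were below both WT libraries for Psma7 and for Psmb4, and neither difference passed the test. Psma3 shares 4263 bp with 3110056K07Rik on the other strand, at a mean of 57.0 CPM, and how strand was used in counting is not stated, so its level is the less certain.

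All 6 catalytic genes above 1 CPM had estimates below 0, and none passed the test. The lowest was that of Psmb10, at 6.50 and 6.31 CPM in WT and 6.09 and 4.65 CPM in cKO. Its log2 fold change was -0.26 (SE 0.27, adjusted p = 0.775 with DESeq2), -0.08 without cKO replicate 2 and -0.45 without cKO replicate 1. Its low value came from cKO replicate 2. Psmb5 was at 10.6, 11.7, 10.5 and 8.68 CPM. Its log2 fold change was -0.22 (SE 0.21, adjusted p = 0.742 with DESeq2), -0.09 without cKO replicate 2 and -0.35 without cKO replicate 1. For both genes the cKO libraries lay below the WT libraries, and cKO replicate 1 lay next to the lower WT value. The estimates of Psmb6, Psmb7, Psmb8 and Psmb9 lay between -0.06 and -0.03 with overlapping groups, and each changed sign on leaving out at least 1 library. The row of Mir686 overlapped 1319 bp of Psmb5 on the same strand, at a mean of 1.05 CPM, so that fragments there can be credited to either.

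In the 19S cap, the lowest estimate in relation to its error was that of Psmd4, a ubiquitin receptor also known as Rpn10. It was at 59.0 and 59.1 CPM in WT and 50.5 and 49.4 CPM in cKO. The groups did not overlap, the log2 fold change was -0.24 (SE 0.10), and the DESeq2 adjusted p was 0.204. Psmd8, the most strongly transcribed non-ATPase gene per kb, followed at 44.5, 44.2, 38.5 and 38.7 CPM, with a log2 fold change of -0.20 and an adjusted p of 0.439. In contrast, Psmd14, the deubiquitinase of the lid, was at 94.4, 90.5, 100.1 and 110.1 CPM, with a log2 fold change of 0.18 and an adjusted p of 0.364, and with 0.11 without cKO replicate 2. Psmd7, the catalytically inactive partner of Psmd14, was at 27.3 CPM in cKO replicate 1 and at 20.9 CPM or less in the other libraries. Its log2 fold change was 0.22, with 0.0043 without cKO replicate 1 and 0.41 without cKO replicate 2. Over the 11 non-ATPase genes, 6 estimates were above 0 and 5 below.

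The 6 ATPases ranged from -0.16 for Psmc3 to 0.21 for Psmc6. Psmc3 was the most and Psmc2 the least strongly transcribed of them, at 7.54 and 1.61 CPM per kb. Psmc6 was at 41.2 and 40.6 CPM in WT and 48.1 and 46.7 CPM in cKO (DESeq2 adjusted p = 0.387). The members of 1 ring of equal composition thus differed 4.67-fold in CPM per kb, and the ring shared no direction between genotypes. Exons make up 30.1% of the length of Psmc3 and 9.69% of that of Psmc2. The part of exon share in this difference of level was not tested.

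Among the activators, Psme4, which encodes PA200, was at 142 and 138 CPM in WT and 158 and 157 CPM in cKO. It was the 1 member that was higher at an unadjusted p under 0.05, with a log2 fold change of 0.17 (SE 0.08, adjusted p = 0.292 with DESeq2). Psme1 and Psme2, which form the interferon-induced PA28 cap together, lie 5913 bp apart on chromosome 14. Psme1 was at 7.86 and 8.46 CPM per kb in WT and 7.63 and 6.88 CPM per kb in cKO, and Psme2 at 2.13, 2.68, 2.61 and 1.81 CPM per kb. The ratio of Psme1 to Psme2 was 3.68 and 3.16 in WT and 2.92 and 3.81 in cKO, with no order by genotype. Psme3, the nuclear PA28 gamma, was at 4.73, 5.75, 4.87 and 5.57 CPM per kb, and the inhibitor gene Psmf1 had a log2 fold change of -0.09.

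Assembly chaperones ranged from the lowest level of all members above 1 CPM to just above the median. The 4 chaperones of the core, Psmg1 to Psmg4, had a median of 0.988 CPM per kb, from 0.724 for Psmg1 to 2.23 for Psmg3. Psmg1 was at 7.79 and 6.41 CPM in WT and 8.54 and 9.21 CPM in cKO, with the highest estimate of any class member above 1 CPM, 0.32 (SE 0.23, adjusted p = 0.596 with DESeq2), ranging from 0.19 without WT replicate 2 up to 0.46 with WT replicate 1 omitted. Of the 3 chaperones of the cap, Psmd9, Psmd5 and Psmd10 had levels of 2.79, 1.83 and 0.460 CPM per kb. Psmd9 was at 66.5, 61.2, 57.2 and 60.1 CPM and Psmd10, known as gankyrin, at 3.47, 3.76, 4.84 and 3.19 CPM. The cKO values of Psmd10, the 1 member on the X chromosome, enclosed both WT values. The row that is no subunit, Psmc3ip, was at 1.85, 1.99, 3.43 and 2.97 CPM, with the widest change of all 47, a log2 fold change of 0.73 (SE 0.39, adjusted p = 0.385 with DESeq2).

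The 3 members under 1 CPM include 2 further paralogues beside Psmb11. Psma8, the alpha subunit of spermatogenic cells, had 5 and 3 fragments in WT and 1 and 7 in cKO, or 0.0260 to 0.176 CPM over a gene of 56.1 kb. The exact 95% Poisson interval of the highest library was 0.0708 to 0.363 CPM, and it overlapped the interval of each other library. Psme2b, a single-exon relative of Psme2, was at 0.622, 0.688, 1.37 and 0.591 CPM. Its values held fractions in all 4 libraries, and its row overlapped 261 bp of 9930111J21Rik1 on the same strand, so its fragments may belong in part to a near-identical copy or to the overlapping gene.

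Estimates among the members followed gene length and level. For the 46 class members above 1 CPM, Spearman's correlation between gene length and log2 fold change was 0.51, and over all 11625 genes it was 0.16. With Psmc3ip, a short gene that is no subunit, it was 0.44 for 47 members. The 9 members shorter than 5 kb, Psmc3ip among them, had a median log2 fold change of -0.13 and the 4 members of at least 50 kb a median of 0.14, beside -0.07 and 0.04 for all genes of these lengths. Psme4 and Psmd14, the longest members at 109 and 88.7 kb, were among those with both cKO libraries above both WT libraries. The same correlation between CPM per kb and log2 fold change was -0.58 for the members and -0.21 for all genes, and short members were also the more strongly transcribed per kb, with a correlation of -0.49 between length and level, beside -0.34 over all genes. Level holds length as its divisor. These are descriptions across genes that share the same 4 libraries, and genes are not independent replicates. The relation with length rested in part on single libraries: without WT replicate 2 the correlation fell to 0.20 and without cKO replicate 2 to 0.23, while it was 0.62 without WT replicate 1 and 0.64 without cKO replicate 1. Over all genes the same omissions gave 0.05, 0.09, 0.25 and 0.20 in this order. That with level was between -0.58 and -0.45 throughout.

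**Figure D4:**
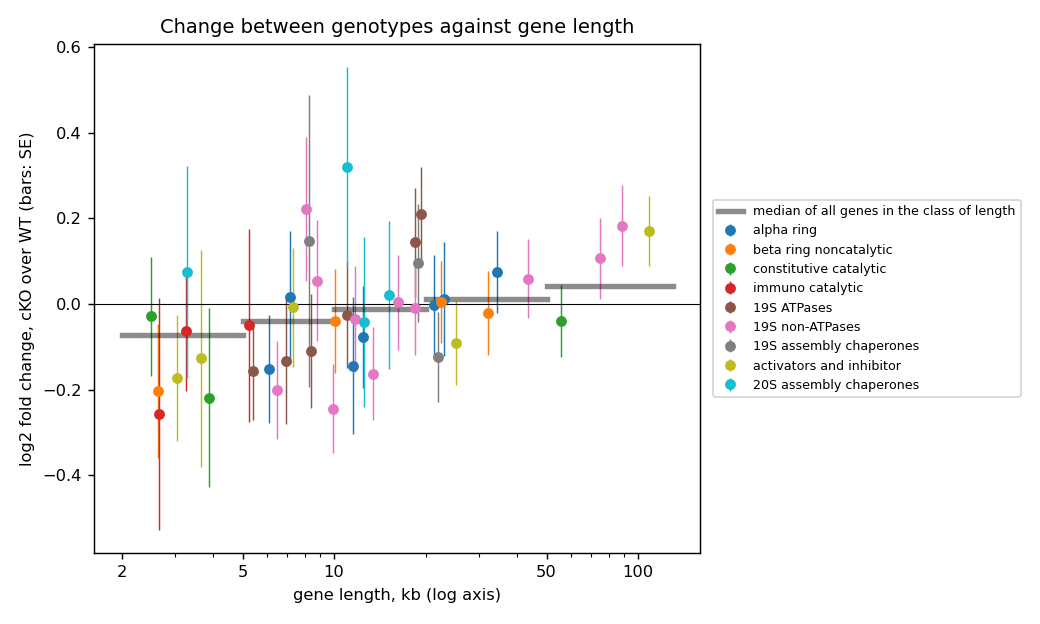
Log2 fold change of cKO over WT, with its SE, against gene length in kb on a log axis for the 46 proteasome genes of a class, with grey bars for the median of all genes in 5 ranges of length. The shortest members lie mostly below 0 and the 4 longest mostly above it, and the grey bars rise in the same order from -0.07 to 0.04.

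The members were spread over 16 chromosomes. Of the 47 above 1 CPM, 10 had a neighbour on the other strand whose start lay within 1000 bp of their own in head-to-head order, or 21.3%, against 18.2% of all genes above 1 CPM. One such pair was Psmb9 and Tap1, the peptide transporter subunit of the class I pathway, whose starts are 226 bp apart on chromosome 17. Psmb9 had a log2 fold change of -0.05 (SE 0.23), and Tap1, at 43.2 and 42.3 CPM in WT and 48.1 and 47.8 CPM in cKO, had one of 0.16 (SE 0.11), with neither past the test. Psmb8 starts 970 bp beyond the end of Tap1. Other head-to-head neighbours were Ss18l1 with Psma7, Dnajc2 with Psmc2, Ftsj3 with Psmc5, Sirt3 with Psmd13 and Atg4a with Psmd10, and each of these 5 neighbours had a log2 fold change between -0.18 and 0.20. The other 4 pairs were Mrpl32 with Psma2, where Mrpl32 had 0.46 (SE 0.36), Rnf31 with Psme2, Cep76 with Psmg2, and AY074887 with Psma4, where AY074887 was at a mean of 0.0103 CPM, too low for an estimate. No neighbour of the 10 passed the test.

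Genes that act with the proteasome but lie outside the symbol rule gave the same count. Of 31 such genes, covering ubiquitin, shuttle factors, assembly and regulation, all were above 1 CPM, 16 had estimates above and 15 below 0, and 0 were called with DESeq2, edgeR or limma voom. At an unadjusted p under 0.05 there were 2 higher and 3 lower, beside 7.2% and 6.31% of all genes, and 4 of the 5 are described. Adrm1, the ubiquitin receptor Rpn13 of the cap, was at 54.9 and 51.9 CPM in WT and 44.1 and 42.6 CPM in cKO (log2 fold change -0.30, adjusted p = 0.0955 with DESeq2). Ecpas, a scaffold that binds the cap and core, was at 91.2, 85.3, 101 and 111 CPM (DESeq2 adjusted p = 0.101), and the deubiquitinase Usp14 at 23.3, 22.6, 27.7 and 28.2 CPM (DESeq2 adjusted p = 0.308). The transcription factor gene Nfe2l1 was at 60.5, 63.1, 54.0 and 53.6 CPM, with a log2 fold change of -0.20 (SE 0.10, adjusted p = 0.350 with DESeq2). These 4 were picked by their unadjusted p, and the groups did not overlap in any of them. Over all genes, the cKO libraries were above both WT libraries in 24.9% and below both in 24%. Pomp, the maturation factor of the core, was at 38.1, 41.8, 35.8 and 38.2 CPM.

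Immunoproteasome genes are induced by interferon gamma, and genes of that response and of class I peptide loading were compared with them. Of 28 listed, 25 were above 1 CPM, with a median log2 fold change of -0.02, 1 increased and 1 decreased. Ifngr1, a chain of the interferon gamma receptor, increased from 254 and 283 CPM to 382 and 398 CPM, with a log2 fold change of 0.54 (SE 0.08, adjusted p = 3.55e-08 with DESeq2; with edgeR 0.0310). It passed with each other tool and scaling, with the replicate block and on leaving out any 1 library. The class I heavy chain gene H2-D1 decreased from 44.9 and 40.1 CPM to 31.7 and 33.0 CPM, with a log2 fold change of -0.40 (SE 0.12, adjusted p = 0.0354 with DESeq2). Its adjusted p was 0.145 with edgeR and above 0.05 on leaving out any 1 library, and class I genes are so alike in sequence that counting may split their fragments. At an unadjusted p under 0.05 there were 3 higher and 3 lower of the 25, beside 7.2% and 6.31% of all genes. Next to Ifngr1 and H2-D1 these were 4 genes that did not pass after adjustment. Ifngr2, the other chain of the same receptor, was at 106, 113, 148 and 121 CPM (log2 fold change 0.29, adjusted p = 0.0951 with DESeq2). Ifnar2, a chain of the type I interferon receptor, was at 48.4, 52.1, 63.9 and 59.3 CPM (0.29, adjusted p = 0.115 with DESeq2). The class I gene H2-K1 fell short of the threshold with an estimate of -0.35 (adjusted p = 0.173 with DESeq2), from a mean of 48.1 CPM in WT to 37.9 CPM in cKO, and Ifi35 had an estimate of -0.35 (adjusted p = 0.276 with DESeq2). In all 4, picked by their unadjusted p, the genotypes did not overlap, where 24.9% of all genes had cKO above WT without overlap and 24% below. The activators of the response did not pass the test. Irf1 was at 76.1 and 82.1 CPM in WT and 90.3 and 66.9 CPM in cKO, with the cKO libraries on both sides of WT, and Nlrc5, the class I transactivator, was at 44.7, 37.5, 47.0 and 37.1 CPM. The 1 increased and 1 decreased of 25 stand beside 2.14% and 1.57% of all genes, and Psmb8, Psmb9 and Psmb10 were not among the called.

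Of the DP thymocyte markers, Cd8a, Rag1 and Tcf7 decreased by these criteria, with log2 fold changes of -0.54, -0.31 and -0.33. These sizes rested in part on 1 library: on leaving out 1 at a time Cd8a ranged from -0.71 to -0.35 and Rag1 from -0.49 to -0.12, both smallest without WT replicate 2, and Tcf7 from -0.49 to -0.17, smallest without cKO replicate 2. Its 12 genes, all above 1 CPM, had a median log2 fold change of -0.02, with 5 higher, by up to 0.19, and 7 lower, and the 3 decreased of 12 stand beside 1.57% of all genes. None of the 3 passed with edgeR, and on leaving out 1 library Cd8a alone stayed past the DESeq2 threshold each time. Beside them, the summed level of the 50 proteasome rows was 1998 and 1979 CPM in WT and 1989 and 1988 CPM in cKO, or 0.200%, 0.198%, 0.199% and 0.199% of all fragments.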

How the data were processed

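TTchem-seq of DP thymocytes in 2 WT and 2 cKO libraries was analysed, with groups taken from the sample titles. Reads were filtered by the authors with fastp 0.13.1, mapped by STAR 2.7.9a to mm10 (GRCm38) and counted as fragments per gene, for which the submitters' processing notes name featureCounts 1.6.1 and the study's methods the output of STAR. The deposited values are expected counts over whole genes, introns included, in which 8.61% of values are fractional, and the deposited gene length is another column, in bp. Strand use and removal of duplicates for this table are not given in the sources used here, and no molecular identifiers are described, so intervals and floors cover counting error only. The authors did not apply the yeast spike-in, and it was not used here either, so a change shared by all genes would not be seen.

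Counts were rounded and fitted over all 24984 genes with DESeq2 1.42.0 (Wald test, no covariates, default independent filtering, Benjamini-Hochberg adjustment) in R 4.3.3. CPM and CPM per kb were computed from the deposited counts and lengths with pandas 2.3.3 and numpy 2.4.6. Correlations used scipy 1.17.1. The alternatives were edgeR 4.0.16 quasi-likelihood and limma 3.58.1 voom, both on genes with a mean of at least 1 CPM, TMM and total count scaling, other filters and fold criteria, a replicate block and leaving out each library. With 1 library left in an arm, that library is assumed to vary like the other genotype. The DESeq2, edgeR and limma voom fits in their basic form were run on simulated counts, with results not given here, and the other alternatives were not. Replicates within a genotype differed by more than counting noise (chi-square per degree of freedom 40.7 in WT and 30.7 in cKO). The labels do not say which or how many mice gave each library, so p-values measure the spread between these samples.

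Of the symbols of one context list, Shfm1, AI314180, Paaf1 and Ufd1l had no row under these names. Named genes were Tox4, Psmb5 to Psmb11, called members, the 3 highest and 3 lowest changes, the highest and lowest level in each class, members under 1 CPM, called genes of the context lists and a few fixed regulators. Other members are named after their values were seen. The members and lists were chosen with earlier results of these data known. The dendritic and myeloid list of 12 markers summed to 11.0 to 14.1 CPM. 1 gene of the wider pathway list is not reported here by name.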

Additional observations from a re-analysis of the deposited data

How the results depend on the processing

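The 0 increased and 0 decreased proteasome genes, and the 0 called among the 31 other genes of the pathway, were the same in number under every alternative of test, scaling, filter, fold criterion, replicate block and left-out library. Some alternatives could not have changed a count of 0. A limit of 1.5-fold can only remove calls, and without the CPM criterion the members under 1 CPM had no adjusted p. With the replicate block in DESeq2, the median log2 fold change of the members was -0.02 and the lowest adjusted p 0.713. Between the deviations of the same replicate numbers, r was -0.03 over all genes and -0.37 over the 47 members. Such a correlation cannot settle whether equal numbers mark pairs. Over all genes the block in DESeq2 left 121 increased and 72 decreased, against 249 and 182 without it. Over all genes edgeR called 59 and 17, and limma voom 57 and 16. On leaving out 1 library, the median ranged from -0.046 to 0.0016, the latter without WT replicate 2, and the calls over all genes ranged from 61 to 320 increased and from 28 to 126 decreased. The log2 ratio of immuno to constitutive genes in WT was -2.05 without division by length and -0.37 as a mean of log2(CPM per kb + 0.5), and on leaving out 1 library its difference between genotypes ranged from -0.13 to 0.06.

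Some estimates, none of them called, changed sign. On leaving out 1 library at a time, the log2 fold change ranged for Psmb6 from -0.15 to 0.10, Psmb7 from -0.091 to 0.011, Psmb8 from -0.19 to 0.073, Psmb9 from -0.14 to 0.041, Psmb2 from -0.082 to 0.041, Psmd10 (0.15) from -0.17 to 0.41, Psme2b (0.57 with all libraries) from -0.11 to 1.04, Psmg3 from -0.090 to 0.23, Psma8 (0.18) from -1.78 to 0.99, Irf1 from -0.24 to 0.18, Nlrc5 from -0.14 to 0.19 and Prss16 (1.73) from -1.27 to 3.32. With all libraries the other 8 were between -0.062 (Psmb8) and 0.076 (Psmg3). With the replicate block Psma8 was at -0.24. The causes were not tested. Psma8, Psme2b and Prss16 rest on few fragments, and the 2 libraries per genotype limit single members to changes of about the widths of their intervals. The 2 relations with length and level were examined without each library after seeing the data.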
